A study of Homo sapiens with 26 samples.

Results

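Distal chromosome 3q was taken as the end of the long arm of chromosome 3 from position 170000000 (hg19 build) onward, and its members were all called receptor sites that start past that position in any of 10 lists of sites. These were 4774 of 87206 sites (5.47%). They made up 59.3% of the 8044 sites of chromosome 3, on 14.1% of its length up to the last called site. The stretch was chosen by its site counts in these same lists, so its density is given as a description and no test was made of it. The study used chromatin immunoprecipitation followed by sequencing (ChIP-seq) to map the estrogen receptor (ER) in PR-deficient T47D cells, and both ER and the progesterone receptor (PR) in T47D cells. T47D is an established line from human breast cancer. Before treatment the cells of either line had been kept in charcoal-stripped serum to remove steroids. They then received estradiol (E2, an estrogen), R5020 (a progestin made by synthesis) or the 2 hormones together, each at 10 nM, for 45 min. Lists of ER sites were used from PR-deficient cells with E2, R5020 and E2+R5020, and from T47D cells with the same treatments. Lists of PR sites were used from T47D cells with these treatments, and 1 list came from T47D cells with E2+R5020 after precipitation of ER and then of PR (reChIP). Each of these groups held 1 library, and how PR had been lost in the deficient cells was not given in the labels.

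ER and PR are nuclear receptors that bind DNA as dimers once their steroid ligand is present, and they recruit cofactors that open chromatin and change transcription of nearby genes. Most of their binding in breast cells lies at enhancers far from promoters, often together with pioneer factors that make the DNA accessible. Clusters of sites along a chromosome can therefore be read at several scales, from a single enhancer to a stretch of many genes. Distal 3q carries genes of wide interest, among them SOX2, a stem cell transcription factor, BCL6, a transcriptional repressor of lymphoid cells, and ECT2, an exchange factor needed for cytokinesis. Genes were not placed against the sites here, because no hg19 annotation was used, and the DNA sequence of the sites was not analysed.

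The 10 lists held 4014 to 19220 sites each. Read depth is unknown, and the other 16 of the 26 libraries, inputs, vehicle and IgG controls, were not analysed here. The labels give 1 vehicle library for each line and antibody, so lists of the same line and antibody share the subtracted library. Intervals below are exact 95% intervals that cover counting error over sites only, since no group had a replicate. Comparisons between lists therefore describe these libraries and carry no p-value.

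Sites were denser on distal 3q than on the rest of chromosome 3 in each of the 10 lists, but the size of the excess ran from under 2-fold to 26.2-fold. With R5020, the ER list of T47D cells held 766 sites on distal 3q, or 27.4 per Mb, against 178 on the rest of the chromosome, or 1.05 per Mb (ratio 26.2, interval 22.2 to 31.0). That stretch alone carried 14.3% of all sites of the list (13.4 to 15.3). All PR lists were also rich in distal 3q sites. With E2 they numbered 644 on distal 3q, at 23.0 per Mb, against 311 at 1.83 per Mb elsewhere on the chromosome (ratio 12.6, 11.0 to 14.5). With R5020 the PR list held 753 distal sites at 26.9 per Mb, against 267 at 1.57 per Mb (ratio 17.2, 14.9 to 19.8). With both hormones it held 1393 at 49.8 per Mb, against 448 at 2.64 per Mb (ratio 18.9, 17.0 to 21.1). Distal 3q thus held 8.09%, 11.8% and 11.7% of the PR sites with E2, R5020 and both hormones.

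The remaining T47D lists had smaller excesses. The ER list of E2 held 55 distal sites at 1.97 per Mb, against 187 at 1.10 per Mb on the rest (ratio 1.79, 1.30 to 2.43). The ER list of E2+R5020, the longest of the series, held 313 distal sites at 11.2 per Mb, against 849 at 4.99 per Mb (ratio 2.24, 1.96 to 2.56). Of the ER sites of T47D cells given R5020, distal 3q therefore held 1.63% (1.45 to 1.82) when E2 had been added and 14.3% when it had not. For the reChIP list the numbers were 285 distal sites at 10.2 per Mb, against 265 at 1.56 per Mb (ratio 6.54, 5.51 to 7.76).

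In PR-deficient cells the excess was again largest with R5020. The R5020 list held 331 distal sites at 11.8 per Mb, against 252 at 1.48 per Mb on the rest (ratio 7.99, 6.76 to 9.45). E2 gave 130 distal sites at 4.65 per Mb, against 304 at 1.79 per Mb (ratio 2.60, 2.10 to 3.20), and both hormones gave 104 at 3.72 per Mb, against 209 at 1.23 per Mb (ratio 3.03, 2.37 to 3.85). Set beside T47D cells under the same hormone, the ER ratio was 7.99 in PR-deficient cells and 26.2 in T47D cells with R5020, and the intervals did not overlap. With E2 it was 2.60 in PR-deficient and 1.79 in T47D cells, and with both hormones 3.03 and 2.24, with overlapping intervals. Other differences between the lines cannot be told apart from the loss of PR, since 1 PR-deficient line is set against 1 T47D line. Each list also rests on 1 library, and the intervals hold no error between libraries.

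Against all other autosomes in place of the rest of chromosome 3, which was sparser than the autosomes in every list, the ratios were lower. They ran from 1.43 for T47D ER with E2 to 17.3 for T47D ER with R5020.

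**Figure D1:**
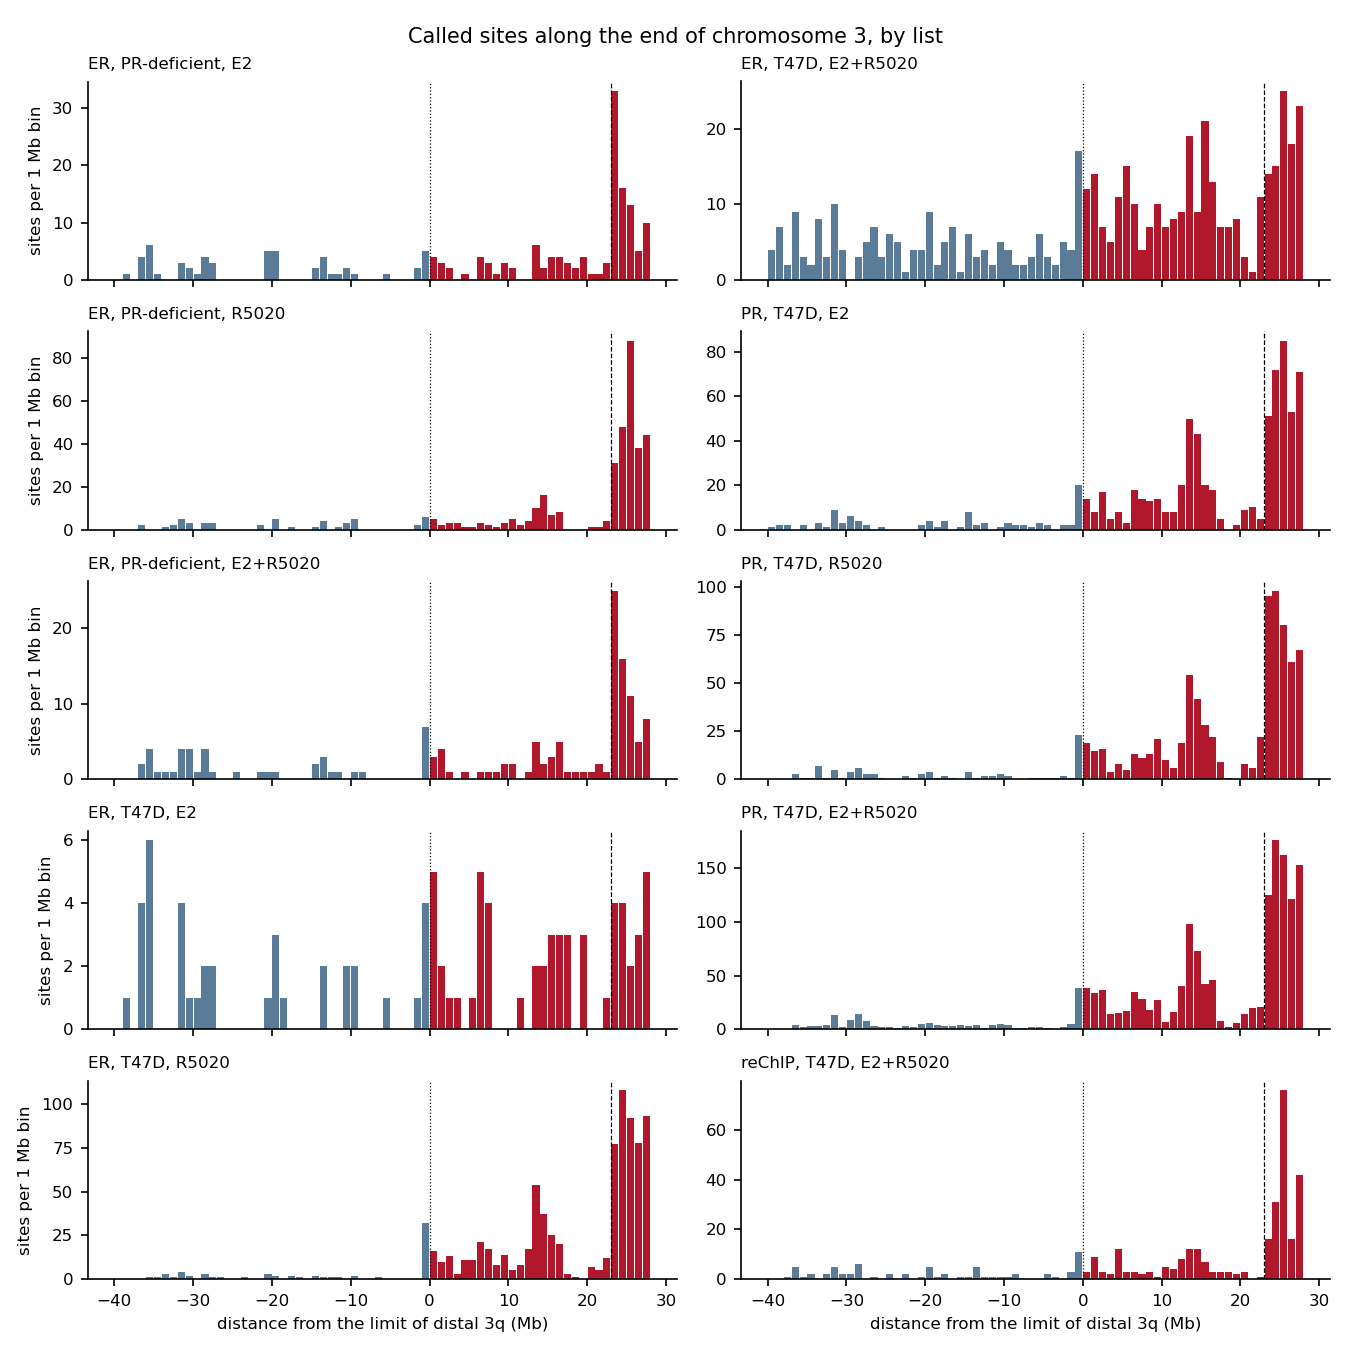
Called sites per 1 Mb bin (y axis, own scale for each list) against the distance from the limit of distal 3q in Mb (x axis), with distal 3q bins in red and bins before it in blue. The dotted line marks the limit and the dashed line a point 23 Mb past it, past which sites are 2.02 to 14.1 times as dense as between both lines. The bin just before the limit already holds 32 sites in the T47D ER list of R5020.

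Counts per 1 Mb bin showed where on the arm the sites lay. A bin was called dense when it held at least 3 sites and at least 3 times the mean of the list over chromosome 3 before the limit. In the T47D ER list of R5020, 24 of the 28 distal 3q bins were dense, against 11.7% of all 3109 bins of the genome. Among PR lists, 22 of 28 distal bins were dense with E2 (12.2% of all bins), 25 with R5020 (11.7%) and 25 with both hormones (13.1%). Since the stretch was picked for such bins, these shares only describe it. The excess was narrower elsewhere: 12 distal bins were dense in the reChIP list (16.4% of all bins), 7 in the T47D ER list of E2+R5020 (6.79%) and 6 in that of E2 (12.1%). PR-deficient cells had 11 dense distal bins with R5020 (16.2%), 8 with both hormones (17.9%) and 5 with E2 (15.6%). With E2 in these cells, 5 of 28 distal bins is close to the share over all bins, so dense bins were hardly in excess there.

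Bins of distal 3q were also among the fullest of the whole genome. The 5 fullest bins of the T47D ER list of R5020 were the last 5 bins of chromosome 3, from 193 to 198 Mb, with 77, 108, 92, 78 and 93 sites in order of position. These bins were also the fullest 5 of the PR list of R5020, with 95, 98, 80, 61 and 67 sites, and of the PR list of both hormones, with 125, 176, 162, 121 and 153. With E2, 4 of them led the PR list, and the bin from 193 to 194 Mb, with 51 sites, shared 6th place. In PR-deficient cells the bin from 193 to 194 Mb was the fullest of the genome with E2, at 33 sites, and shared first place with both hormones, at 25. There, with R5020, the bin from 195 to 196 Mb held 88 sites and came 2nd. No distal 3q bin was among the 10 fullest of the T47D ER lists of E2 or of both hormones.

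Within the arm the profile had the same outline in the T47D ER list of R5020 and the PR lists. Behind the limit lay uneven, moderate counts, then higher counts between 183 and 187 Mb and low counts between 187 and 190 Mb. A partial recovery followed up to 193 Mb, and the highest counts lay from 193 Mb to the end. In the PR list of both hormones, the 4 bins from 183 Mb held 98, 73, 42 and 46 sites, the next 3 held 8, 2 and 6, and the 3 up to 193 Mb held 14, 20 and 21. In the T47D ER list of R5020 they held 54, 37, 25 and 20, then 3, 1 and 0, and then 7, 5 and 12. The recovery was not seen in the reChIP list, with 3, 3 and 2 sites from 187 to 190 Mb and then 3, 0 and 1. Over the same bins the T47D ER list of both hormones held 7, 7 and 8 and then 3, 1 and 11. The bins from 188 to 190 Mb were dense in none of the 10 lists, and those from 190 to 192 Mb in 4. Those from 194 to 195 Mb and from 197 to 198 Mb were dense in all 10.

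The dense stretch was bounded by the run of 1 Mb bins with the largest summed excess over 2 times the mean count before the limit. It ran from 169 Mb to the end of the chromosome in 5 T47D lists, namely ER with R5020, the 3 PR lists and the reChIP. The limit of 170 Mb therefore cuts off its first bin, which held 32 sites in the ER list of R5020 and 38 in the PR list of both hormones. In PR-deficient cells the run was shorter, from 193 Mb to the end with E2 and with both hormones and from 179 Mb to the end with R5020. In the other two T47D lists the run lay elsewhere on the chromosome, from 124 to 135 Mb for ER with E2 and from 90 to 91 Mb for ER with both hormones. The bin from 90 to 91 Mb held 77 sites and was the 8th fullest of the genome in the latter list. Without this bin in the rest of chromosome 3, the density ratio of that list was 2.45 in place of 2.24. Why the bin was so full was not tested. When the search was kept to chromosome 3 past 140 Mb, the T47D ER lists of E2 and of both hormones gave runs from 193 and from 192 Mb to the end.

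At a finer scale the rise at the first edge spread over several 100 kb bins. The 10 lists together held 3 sites between 169.0 and 169.2 Mb and 6 in the next 100 kb, then 21 between 169.3 and 169.4 Mb and 18 to 27 in each 100 kb up to the limit. In T47D lists the first sites of the run began at 169215174 for ER with R5020, 169024152 for PR with both hormones, 169040855 for PR with R5020, 169497758 for PR with E2 and 169379387 for the reChIP. A split of 160 to 180 Mb into 2 constant rates was best placed at 169.2 Mb for ER with R5020, with 0.326 sites per Mb before it and 14.4 after it. It fell between 168.0 and 169.4 Mb in all 10 lists. The sites nearest the limit were those of ER with both hormones in T47D at 170000659 to 170000789 (10 steps of its score) and of PR with both hormones at 170007307 to 170007837 (10 steps) just inside. Just outside lay PR sites of both hormones at 169996604 to 169996947 (7 steps) and of E2 at 169986793 to 169987034 (9 steps).

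The rise near 193 Mb lay at nearly the same place in either line. Between 193.3 and 193.4 Mb the 3 PR-deficient lists held 2 sites and the 7 T47D lists 11, while between 193.4 and 193.5 Mb they held 12 and 43. Split in the same way, the stretch from 190 Mb to the end broke at 193.3 or 193.4 Mb in the 3 PR-deficient lists and between 193.4 and 193.5 Mb in 5 of the T47D lists. The T47D ER lists of E2 and of both hormones broke at 192.5 and 192.0 Mb. The last called site of any list ended at 197950024.

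**Figure D2:**
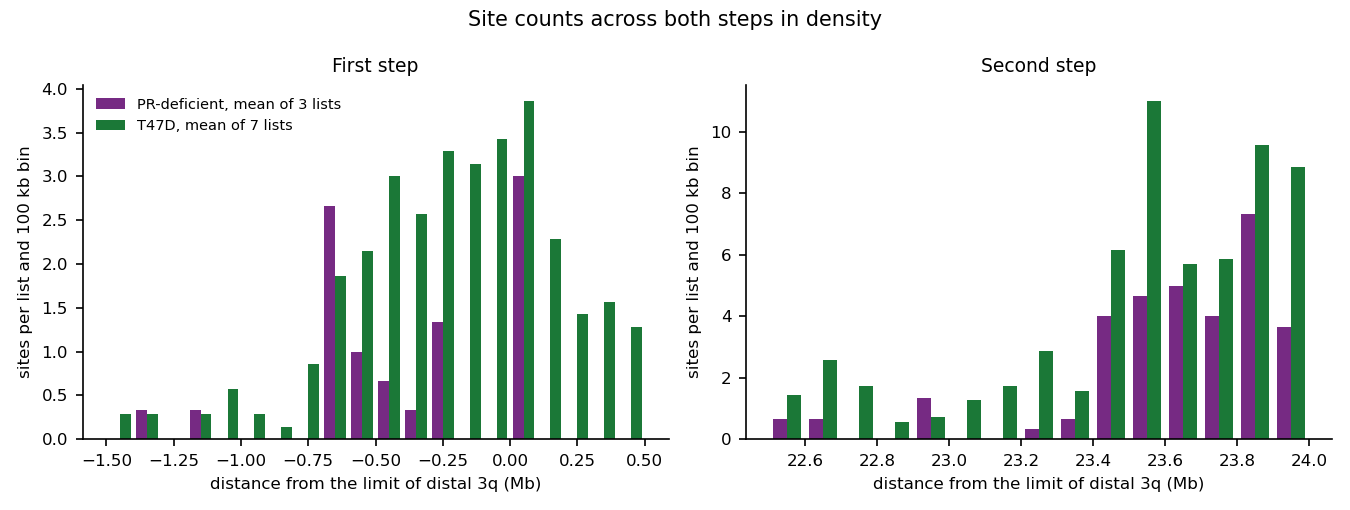
Sites per list and 100 kb bin (y axis) against the distance from the limit of distal 3q in Mb (x axis), as the mean of the 3 PR-deficient lists and the mean of the 7 T47D lists, with the first step in density on the left and the second on the right. At the first step the 7 T47D lists together hold 1, 6, 13, 15 and 21 sites in successive bins, while PR-deficient counts are high in single bins only, and at the second step counts of either line rise in the same bin.

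The distal 3q sites were then divided at 193 Mb, the start of the 1 Mb bin that holds the median of these splits, a choice made after the profile had been seen. Past 193 Mb every list was denser than the rest of chromosome 3. In PR-deficient cells the ratio was 8.70 (6.68 to 11.2) with E2, 33.9 (28.4 to 40.6) with R5020 and 10.7 (7.96 to 14.2) with both hormones. In T47D ER lists it was 3.31 (1.92 to 5.37) with E2, 86.4 (72.5 to 103) with R5020 and 3.84 (3.08 to 4.76) with both. PR lists had ratios of 36.7, 51.6 and 56.5 with E2, R5020 and both hormones, and the reChIP list one of 23.5. Between 170 and 193 Mb the ratio was 1.29 (0.944 to 1.73), 2.41 (1.85 to 3.10) and 1.38 (0.954 to 1.95) in PR-deficient cells with E2, R5020 and both hormones. T47D ER lists had 1.46 (0.999 to 2.09), 13.2 (11.0 to 16.0) and 1.90 (1.63 to 2.20) under the same treatments, and PR lists 7.42, 9.74 and 10.8. Of the distal 3q sites of the R5020 ER list, 75.2% lay past 193 Mb in PR-deficient cells and 58.5% in T47D cells. Successive sites past 193 Mb were a median of 4.12 kb apart in the PR list of both hormones and 6.17 kb apart in the T47D ER list of R5020, against 14.6 and 28.3 kb between 170 and 193 Mb.

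**Figure D3:**
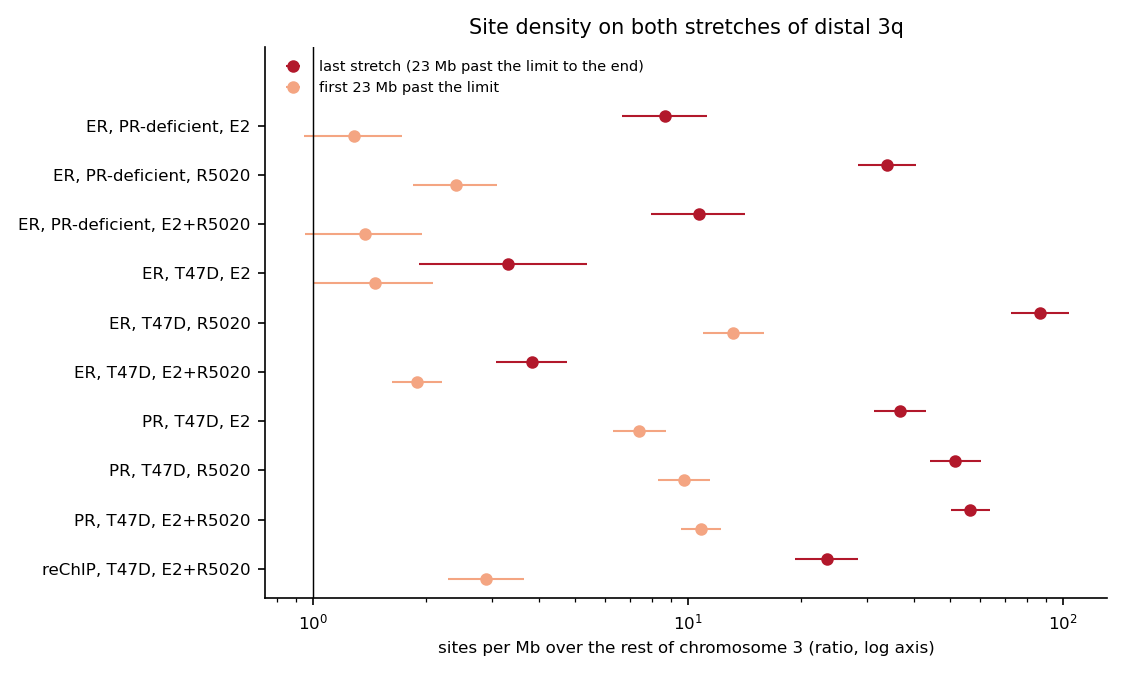
Sites per Mb divided by sites per Mb on the rest of chromosome 3 (x axis, log scale) in each list (y axis), for the last stretch from 23 Mb past the limit to the end and for the first 23 Mb past the limit; bars are exact 95% intervals. The last stretch lies above the first in all 10 lists, and the first reaches 7.42 or more only in the T47D ER list of R5020 and the PR lists.

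Site length differed little between distal 3q and the rest of chromosome 3. The median was higher on distal 3q in 9 of 10 lists, by a factor of 1.01 to 1.29. The largest difference was in the PR list of E2, at 316.5 bp on distal 3q and 245 bp on the rest. The PR list of R5020 had the shortest sites, at 152 bp on distal 3q and 148 bp on the rest. In the T47D ER list of R5020 the medians were 276 and 243 bp, and in that of E2, the exception, 1024 and 1113 bp. PR-deficient cells had 1166 bp on distal 3q and 1057.5 bp on the rest with E2, 253 and 235 bp with R5020, and 1417 and 1212 bp with both hormones. The wide lists thus stayed wide on distal 3q and the narrow lists narrow.

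Scores are the authors' own values for each site. They rise in even steps whose size differs between lists, so they are given here in steps and compared within a list only. In 5 lists most distal 3q sites scored no more than 1 step above the weakest site of the list, as did most sites on the rest of the chromosome. These were ER with R5020 in PR-deficient cells (78.9% of distal 3q sites) and in T47D cells (80.9%), and PR with E2 (81.5%), R5020 (61.2%) and both hormones (70.2%). The median score was equal on distal 3q and on the rest in 5 lists. It was lower on distal 3q in the other 5, at 29 and 43 steps in the T47D ER list of E2, 9 and 10 in that of R5020, and 5 and 6 in the reChIP list. In PR-deficient cells it was 24 and 25 steps with E2 and 20 and 21 with both hormones. Such weak sites made up 80.9% (78.0 to 83.7) of the distal 3q sites of the T47D ER list of R5020, against 71.3% (64.1 to 77.9) of those on the rest. For T47D ER with E2 the shares were 38.2% (25.4 to 52.3) and 7.49% (4.15 to 12.2). The share was lower on distal 3q than on the rest in the PR-deficient list of R5020, at 78.9% and 82.9%, and in the PR list of E2, at 81.5% and 85.9%, with overlapping intervals. When sites below the median score were left out of the T47D ER list of E2, its density ratio turned to 0.697. This rests on 11 distal sites against 96 on the rest. No interval is given for it, so a lower density on distal 3q is not established.

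The strongest sites of several lists were on the arm less often than their full lists were. In the T47D ER list of R5020 distal 3q held 3.19% (1.87 to 5.06) of the highest-scoring 10% of sites, against 14.3% of the list as a whole. For PR with both hormones it held 3.03% (2.13 to 4.16) against 11.7%, and for the reChIP 0.507% (0.165 to 1.18) against 2.89%. For PR with R5020 it held 10.1% (7.85 to 12.7) against 11.8%, a gap within the interval. PR with E2 ran the other way, at 12.2% (9.99 to 14.7) of the highest-scoring 10% against 8.09% of the list. In the PR list of E2 and the PR-deficient list of R5020 the lowest score kept is also the median score, so scores order few of their sites, and ties were ordered by length.

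**Figure D4:**
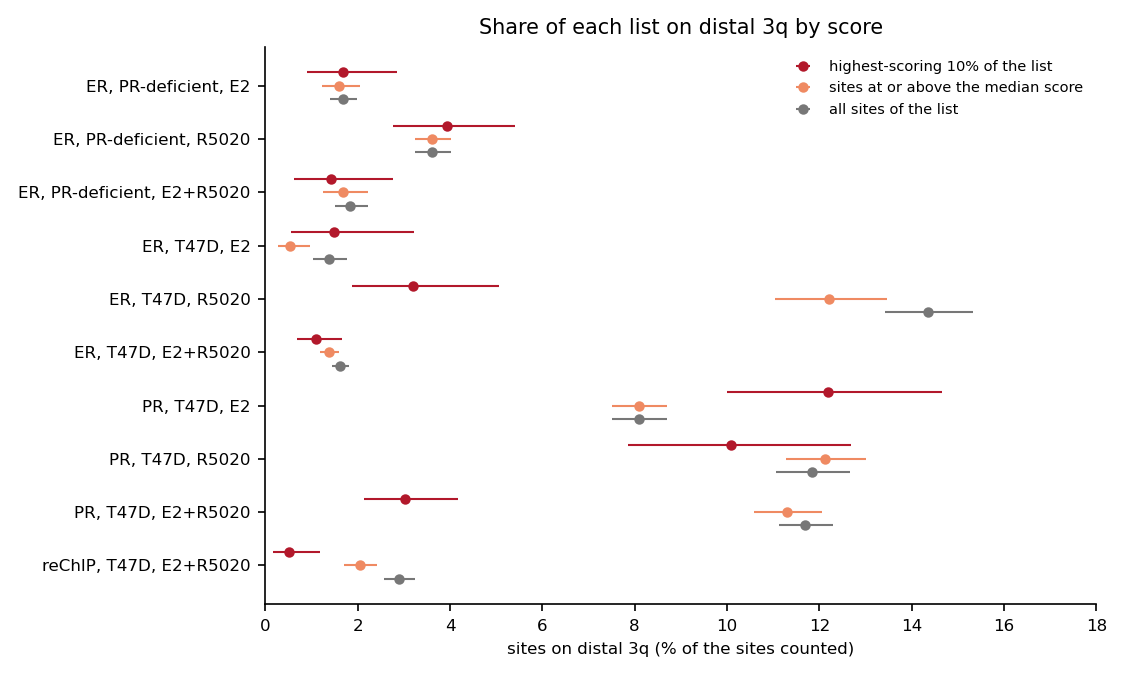
Share of sites on distal 3q in percent (x axis) by list (y axis), among the highest-scoring 10% of the list, among sites at or above its median score, and among all its sites; bars are exact 95% intervals. The T47D ER list of R5020 falls to 3.19% and the PR list of both hormones to 3.03% among the highest-scoring sites, while the PR list of E2 stands at 12.2%.

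Sharing between lists was then counted, and an overlap of 1 bp was enough to call a site shared. A denser list is met more often by chance, so the part of the stretch that the other list covers is given with the shares, and no test was made. That part is lower than the share expected by chance, which also grows with the length of the sites counted and with local density. Sites of all other lists covered 3.57 to 4.60% of distal 3q and 0.576 to 0.661% of the rest, depending on the list left out. The share of sites found in any other list was higher on distal 3q in 7 lists and lower in 3. It was 39.2% (35.7 to 42.7) of the distal 3q sites and 39.9% (32.6 to 47.5) of the other sites of chromosome 3 in the T47D ER list of R5020. For PR it was 26.6% on distal 3q and 22.1% on the rest with R5020, 38.5% and 29.5% with both hormones, and 48.4% (44.5 to 52.4) and 19.0% (14.8 to 23.8) with E2. In the reChIP list it was lower on distal 3q, at 39.3% (33.6 to 45.2) and 50.6% (44.4 to 56.7). In PR-deficient cells it was 84.6% and 72.4% with E2, 50.2% and 42.5% with R5020, and 90.4% and 84.2% with both hormones. The remaining T47D ER lists had 61.8% and 68.4% with E2, with overlapping intervals, and 24.9% and 18.1% with both hormones.

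**Figure D5:**
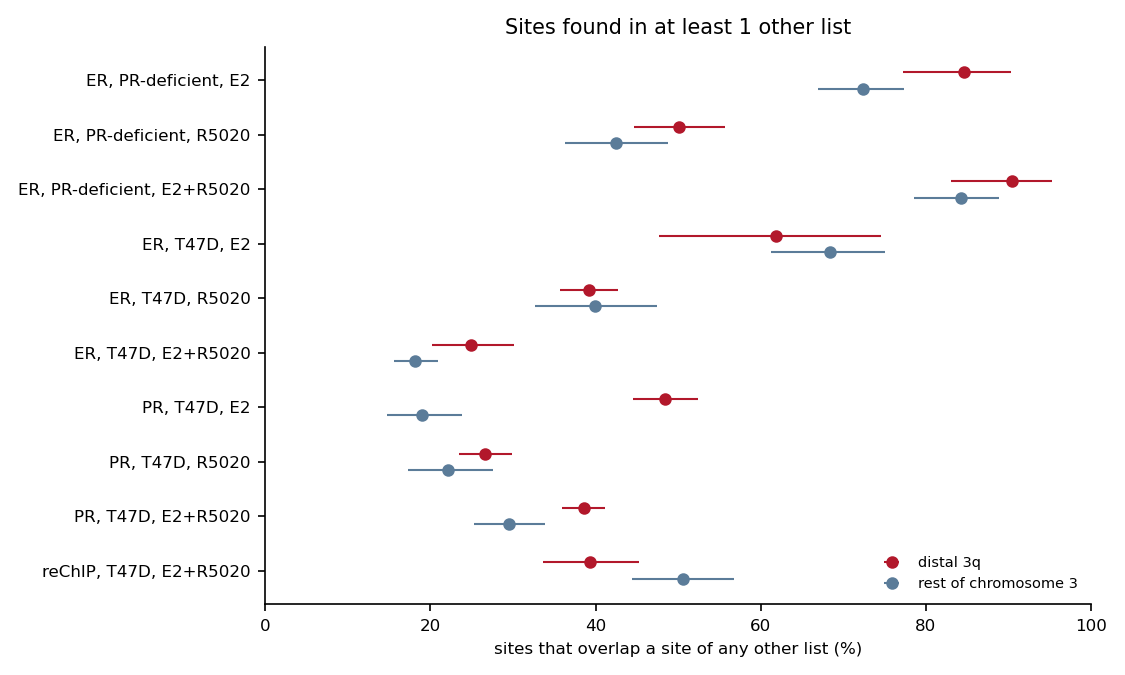
Percent of sites that overlap a site of any other list (x axis) in each list (y axis), on distal 3q and on the rest of chromosome 3; bars are exact 95% intervals. The widest gap is that of the PR list of E2, at 48.4% on distal 3q and 19.0% on the rest, and the reChIP list runs the other way.

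Which lists shared their distal 3q sites differed from the rest of the chromosome. ER sites of T47D cells with R5020 lay at a PR site of both hormones in 186 of 766 cases on distal 3q (24.3%, 21.3 to 27.5, with 1.67% of the stretch covered), against 30 of 178 on the rest (16.9%, 11.7 to 23.2, with 0.0859% covered). They lay at a PR site of E2 in 10.8% (8.72 to 13.3) on distal 3q, with 0.775% covered, and 3.93% (1.60 to 7.93) on the rest, with 0.0485% covered. At an ER site of both hormones, by contrast, lay 22 of 766 (2.87%, 1.81 to 4.32, with 0.277% covered) on distal 3q, against 28 of 178 (15.7%, 10.7 to 21.9, with 0.124% covered) on the rest. Of the ER sites of T47D cells with R5020, then, those on distal 3q recurred less in the list of the same receptor with both hormones than those elsewhere on the chromosome.

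PR sites recurred within the PR lists, of which that of both hormones covered 1.67% of distal 3q and 0.0859% of the rest, and that of R5020 0.413% and 0.0241%. With E2, 245 of 644 distal 3q sites (38.0%, 34.3 to 41.9) were also PR sites with both hormones, against 26 of 311 on the rest (8.36%, 5.53 to 12.0). Of the same sites, 7.45% (5.55 to 9.76) were PR sites with R5020 on distal 3q and 0.322% on the rest, where this was 1 site. For PR with R5020, 15.8% (13.3 to 18.6) of the distal sites and 12.7% (8.98 to 17.3) of the others were PR sites with both hormones. These shares were higher past 193 Mb, where the lists are densest, than before it. For PR with E2 in the list of both hormones they were 48.5% past 193 Mb and 26.9% between 170 and 193 Mb.

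The reChIP list, which was meant to hold sites with both receptors, met the T47D ER and PR lists of the same treatment less on distal 3q. With T47D ER of R5020 (4.21% and 4.15% on the rest) and PR of E2 (3.16% and 3.02%) the shares were about equal. Of its 285 distal sites, 17 (5.96%, 3.51 to 9.38, with 0.277% covered) lay at an ER site of both hormones, against 68 of 265 on the rest (25.7%, 20.5 to 31.4, with 0.124% covered). At a PR site of both hormones lay 23 (8.07%, 5.18 to 11.9) on distal 3q, with 1.67% covered, and 38 (14.3%, 10.4 to 19.1) on the rest, with 0.0859% covered. It met the ER list of PR-deficient cells with R5020 in 46 distal sites (16.1%, 12.1 to 20.9, with 0.341% covered), against 16 on the rest (6.04%, 3.49 to 9.62, with 0.0392% covered). The other PR-deficient lists met 13.0% (9.31 to 17.4) of the distal sites with E2 and 15.1% (11.1 to 19.8) with both hormones, against 17.4% and 16.2% on the rest. The order of these shares differed along the arm. PR-deficient ER with R5020 met 5.77% of the reChIP sites between 170 and 193 Mb and 22.1% past 193 Mb. For T47D ER with both hormones the shares were 13.5% and 1.66%, and for PR with both hormones 11.5% and 6.08%.

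ER sites of E2 were found again between the lines in a lower share on distal 3q than on the rest, with overlapping intervals in the T47D list. The T47D ER lists covered 0.242% of distal 3q and 0.141% of the rest with E2, 0.866% and 0.0277% with R5020, and 0.277% and 0.124% with both hormones. Sites of PR-deficient cells covered 0.629% and 0.213% with E2, and 0.624% and 0.173% with both hormones. Of the PR-deficient sites of E2, 23 of 130 on distal 3q (17.7%, 11.6 to 25.4) lay at a T47D site of E2, against 96 of 304 on the rest (31.6%, 26.4 to 37.1). In the reverse direction the shares were 23 of 55 (41.8%, 28.7 to 55.9) and 96 of 187 (51.3%, 43.9 to 58.7). With R5020, 19 of 331 PR-deficient distal sites (5.74%, 3.49 to 8.82) lay at a T47D site of R5020, against 4.37% (2.20 to 7.68) on the rest. With both hormones the shares were 7.69% (3.38 to 14.6) on distal 3q and 12.9% (8.69 to 18.2) on the rest. Within PR-deficient cells, 58.5% of the distal E2 sites recurred with both hormones, against 47.4% on the rest.

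Distal 3q also weighed on overlaps counted over the whole genome. Of all E2 sites of PR that lay at a PR site of R5020, 28.6% were on distal 3q, and the share of the list that overlapped was 2.11% with and 1.64% without that stretch. For PR with E2 at PR sites of both hormones 25.1% were there, and the share was 12.2% with and 9.98% without it. For T47D ER with R5020 at PR with E2 25.5% were there, with shares of 6.11% and 5.31%. The effect on ER sites of T47D cells with R5020 at ER sites of both hormones ran the other way, because 2.33% of the shared but 14.3% of all R5020 sites were on distal 3q. That share was 17.7% with the stretch and 20.2% without it. With R5020, ER sites at PR sites changed little, at 8.28% with and 8.46% without distal 3q.

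When overlapping sites of all lists were joined, distal 3q held 3570 regions, against 2502 on the rest of chromosome 3, or 128 and 14.7 regions per Mb. Of these, 2831 (79.3%) were in 1 list on distal 3q, against 2030 (81.1%) on the rest. In 3 or more lists were 211 (5.91%, 5.16 to 6.73) and 171 (6.83%, 5.88 to 7.89), and in 5 or more lists 30 (0.840%, 0.568 to 1.20) and 14 (0.560%, 0.306 to 0.937). The distal regions in 5 or more lists numbered 30 with all lists, but 14 without the PR-deficient list of E2, 15 without that of both hormones and 12 without the PR list of both hormones. Of the 3570 distal regions, 3169 were of T47D lists alone, 219 of PR-deficient lists alone and 182 of both lines. Of the 2502 on the rest, these were 1957, 346 and 199. T47D cells gave 7 lists and PR-deficient cells 3, so these counts do not compare the lines on equal terms. The arm was thus rich in sites, and most of them were in a single list, in about the same proportion as on the rest of the chromosome.

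The region in the most lists lay at chr3:193878682-193880440 and held sites of 8 lists, all but the T47D ER lists of E2 and of both hormones. None of these sites was among the leading ones of its list. Those with the highest ranks for their length of list were the reChIP site at 193878894 to 193879475 (12 steps, rank 1668 of 9861) and the PR site of both hormones at 193879938 to 193880291 (10 steps, rank 2063 of 11908). These do not overlap each other. Sites were chained into a region through any overlapping site, so a region in several lists need not hold a place common to all of them. Regions in 7 lists lay at chr3:193864956-193867119, chr3:195860126-195865233, chr3:195427179-195430841 and chr3:195394717-195396760. They included the 3 PR-deficient lists in all cases but the one starting at 195427179, where the R5020 list of these cells had no site.

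Distal regions in 6 lists numbered 7. Only the one whose sites ranked highest in their lists was named, so strong sites were part of the choice. Another of them, at chr3:176668850-176670334, held the strongest distal 3q site of T47D ER with E2 (rank 19). The named region, at chr3:170051657-170053429, held strong ER sites, unlike the regions in more lists. In PR-deficient cells its site scored 275 steps with E2 (rank 57 of 7742) and 186 steps with both hormones (rank 68 of 5663). In T47D cells the ER site of E2 scored 245 steps (rank 87 of 4014), while that of both hormones scored 9 steps (rank 4768 of 19220). The PR sites there scored 5 steps with R5020 and 8 steps with both hormones. No ER site was listed there with R5020 in either line. It was the second strongest distal 3q site of the ER list of E2 in each line, and of PR-deficient cells with both hormones.

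The strongest distal 3q sites differed between lines and antibodies. In PR-deficient cells the first was at 193876322 to 193878636 with E2 (341 steps, rank 11 of the list) and at 193876171 to 193878676 with both hormones (242 steps, rank 33). A PR site of both hormones at 193876606 to 193877337 (26 steps, rank 119) lay within it, and the leading distal PR site of that list, at 193873664 to 193874419 (29 steps, rank 84), lay just before it. The T47D ER list of E2 had no site at either place. Its strongest distal site was at 176668850 to 176670334 (rank 19), which 5 other lists also held, among them PR-deficient ER with E2 and the reChIP. Other leading sites were seen in 1 list alone. The T47D ER site of both hormones at 182371102 to 182371778 (36 steps, rank 21) and the reChIP site at 196625619 to 196625826 (105 steps, rank 4) overlapped no site of another list. The PR site of E2 at 195905232 to 195905624 (20 steps) ranked 4th of its list and was shared with PR and both hormones. With R5020 alone the leading distal 3q sites lay at 195437070 to 195437731 for T47D ER (19 steps, rank 81), at 195679623 to 195679805 for PR (8 steps, rank 67) and at 195666913 to 195667412 for PR-deficient ER (11 steps, rank 94).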

How the data were processed

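ChIP-seq sites of 10 libraries were analysed. The submitters' processing notes name Bowtie2, MACS and hg19, while versions and settings are not given in the sources used here. A vehicle library (and IgG for the reChIP) had been subtracted from each list, per the labels. The authors deposited a score for each site, whose unit is not given, and its length in bp as another column, equal to end minus start plus 1. Every score is a whole multiple of 1 step within 0.02 steps. Replicates were not pooled, and 16 of 26 libraries without a list of their own were not used.

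Counts, overlaps (1 bp or more, alternatives below) and exact 95% intervals (Clopper-Pearson) were made with SciPy 1.17.1, pandas 2.3.3 and NumPy 2.4.6 under Python 3.11.15, and plots with matplotlib 3.10.9. Ratios of densities have intervals from the exact binomial split of both counts. The code was checked on simulated data. Named sites are the 2 highest-scoring distal 3q sites of a list and the 6 regions in the most lists. The ends of the dense stretch and the 2 sites on either side of the limit were added, and not all are printed. Regions in equally many lists were ordered by the summed ranks of their best sites, as shares of the lists. Members and settings were chosen with earlier results of these data known. Planned searches for motifs and for 24 genes near sites were not run, because an hg19 sequence and annotation were not used here.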

Additional observations from a re-analysis of the deposited data

How the results depend on the processing

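No paired analysis was possible because no group has a replicate. All 10 lists stayed denser on distal 3q than on the rest under 8 of the 9 alternatives. With sites at or above the median score only, the T47D ER list of E2 turned round, with a ratio of 0.697 that rests on 11 distal sites. At least 3 times the density of the rest was reached by 7 lists, and by 4 with 170 to 193 Mb alone (chosen after seeing the data). On distal 3q the share of sites in another list was higher in 53 of 90 ordered pairs and, for any other list, in 7 lists. With 170 to 193 Mb alone these were 35 pairs and 4 lists, and the cause was not tested. Regions in 5 or more lists numbered 30, but 62 when sites within 500 bp were joined. Leaving out 1 list gave 12 to 25, with 14 without PR-deficient ER of E2, 15 without PR-deficient ER of both hormones and 12 without PR of both hormones. Leaving out any of the others gave 22 to 25, and the cause of this difference was not tested. The other 52 summary values under alternatives kept within 1.5 times the reported one. Of 90 single-list density ratios, 57 stayed within their interval, 32 moved out of it without turning and 1 turned. Depth is unknown, so counts of weak sites may depend on it, which was not tested.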

Other observations

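Full bins outside distal 3q were seen in some of the same lists. The bin of chromosome 16 from 85 to 86 Mb held 133 ER sites of PR-deficient cells with R5020, the most of any bin of that list, and 128 reChIP sites, where it came 3rd. It held 52, 58 and 88 PR sites with E2, R5020 and both hormones and 48 ER sites of T47D cells with R5020. The ER lists of E2 held 11 sites there in PR-deficient cells and 1 in T47D cells. In the T47D ER list of both hormones the fullest bin was that of chromosome 7 from 61 to 62 Mb, with 167 sites. The chromosome Y bin from 13 to 14 Mb came 3rd in that list, with 114 sites, and 2nd in the reChIP list. The chromosome Y bin from 58 to 59 Mb came 5th and 6th in these lists, with 112 and 80 sites. Why these bins were full was not tested.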
